A study of Oryza sativa Indica Group with 36 samples.

Results

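The transcriptome of rice leaf was compared between noon and late afternoon in the parental cultivar Guangluai4 (GL), an indica rice. The comparison takes the GL libraries collected at 16:00 and at 12:00, 3 of each, which are 6 of the 36 libraries of the series, and uses every gene in the count table that passed a filter on low counts (21772 genes). The libraries were chosen by genotype and clock hour alone, with no measured value.

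All plants were seedlings 45 days old in natural long days, and RNA came from the uppermost leaves that had fully expanded. The series holds 18 GL libraries and 18 of OsPRR37-OE5 (OE), a line that overexpresses OsPRR37 in Guangluai4, with 3 biological repeats of each genotype at 6 hours of 1 day, the first at 4:00 and the last at 0:00. The OE libraries of 12:00 and 16:00 share no library with the GL comparison and are used here to show how far the same change was measured in another genotype. OE is 1 line, so what is due to OsPRR37 and what to any other feature of that line cannot be told apart, and its OsPRR37 counts do not separate the transgene from the resident gene.

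Plants keep time with a circadian clock in which factors of the morning (such as LHY), of the day (the pseudo-response regulators, PRR) and of the evening (TOC1, called OsPRR1 in rice, and LUX of the evening complex) follow one another and repress each other. The clock together with light sets a daily course for a large part of the leaf transcriptome, so that genes for light capture, carbon fixation and starch synthesis are high early in the day, and others are high toward evening. In rice the same clock also gates the CONSTANS-like genes and other regulators of flowering by day length.

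Total counts of the 6 libraries ran from 10580548 to 12541149, with 23420 to 24244 loci with a count. The first principal component of these libraries carried 67.1% of the variance and separated the hours, with scores of -72.2 to -61.0 at 12:00 and 62.6 to 71.2 at 16:00. The second (15.7%) set replicate 1 apart, with scores of -51.1 and -38.9 against 10.3 to 31.6 in replicates 2 and 3, so list counts from replicates 2 and 3 alone are given beside the main ones where they differ. The 10 most abundant genes held 12.0 to 15.5% of the counts at 12:00 and 7.28 to 8.16% at 16:00, and the scaling factors of the trimmed mean method (TMM) ran from 0.702 to 0.840 and from 1.01 to 1.07. Levels are CPM, counts relative to the scaled library size, and a change is the log2 difference between 16:00 and 12:00. Of the markers of leaf mesophyll, 8 antenna genes summed to 49290 CPM or more in every library. The meristem markers OSH1 and OSH15 did not pass the filter, and the secondary wall cellulose synthases summed to 2.79 to 9.73 CPM.

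Between noon and 16:00, 3655 genes rose and 3287 fell in GL, which is 16.8% and 15.1% of the genes tested and 31.9% in all. The list counts below are to be read against these shares. A call is an adjusted p under 0.05 in the quasi-likelihood test of edgeR, adjusted by Benjamini-Hochberg over all genes tested, and every adjusted p below is from it unless another fit is named. Of the genes called, 2024 rose and 1965 fell at least 2-fold, and 708 rose and 778 fell at least 4-fold. For 5261 genes (24.2%) every 16:00 library lay above every 12:00 library, and for 4650 (21.4%) every one lay below. The median change of all genes tested was 0.0295 (log2). Without TMM factors, on library totals alone, the median moved to 0.436 and the calls to 7312 higher and 1860 lower, so that the share of calls that were rises went from 52.7% to 79.7%; this alternative was added after the factors were seen. With the replicate number as a block, which the main model does not have, 4402 rose and 3935 fell. In bulk leaf a change in the share of a cell type cannot be told apart from a change of RNA per cell.

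Of 13 clock genes tested, 5 rose and 5 fell, where 16.8% and 15.1% of all genes did. Their median change was 0.00643. On library totals 7 rose and 3 fell. OsLUX (OS01G0971800; chromosome 1, 42874582 to 42875298, build IRGSP-1.0 of the files), a MYB-like factor of the evening complex, had 0.36, 1.68 and 0.645 CPM at noon and 416, 326 and 413 CPM at 16:00 in replicates 1, 2 and 3. The groups did not overlap, and the gene rose by 8.68 on the log2 scale (SE 0.46; edgeR adjusted p = 1.67e-14). OsFKF1 (OS11G0547000), a blue-light receptor F-box gene, was at 17.2, 9.31 and 10.6 CPM at noon and 212, 177 and 204 CPM at 16:00, a rise of 4.00 (SE 0.30).

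**Figure D1:**
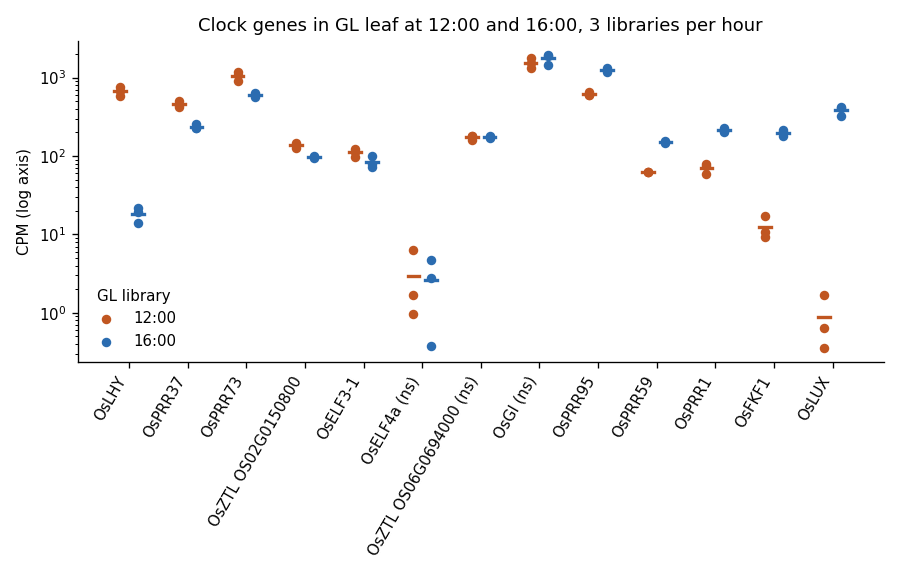
The plot gives the CPM of 13 clock genes in each GL library at 12:00 (orange) and 16:00 (blue) on a log axis, with a bar at the mean of 3 libraries; (ns) marks genes that edgeR did not call. OsLHY went from 586 to 764 CPM down to 13.96 to 21.6 CPM, and OsLUX from 0.36 to 1.68 CPM up to 326 to 416 CPM.

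Of the 5 pseudo-response regulators 3 rose and 2 fell. OsPRR1, the rice TOC1, rose by 1.59 (SE 0.14), from 70.6 ± 9.99 to 213 ± 13.7 CPM (SD, n = 3). OsPRR59 rose by 1.27 (SE 0.09), with 61.8 to 62.8 CPM at noon and 145 to 154 CPM at 16:00. OsPRR95 rose by 1.01 (SE 0.20), from 618 ± 29.3 to 1243 ± 71.8 CPM.

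The largest fall in the list was that of the morning factor. OsLHY (OS08G0157600; chromosome 8, 3360780 to 3373417), a MYB factor, had 586, 680 and 764 CPM at noon and 13.96, 19.2 and 21.6 CPM at 16:00, a fall of 5.21 (SE 0.34; edgeR adjusted p = 9.58e-13), with every 16:00 library below every noon library. OsPRR37 (OS07G0695100; chromosome 7, 29616564 to 29629218), the gene that the OE line overexpresses, fell by 0.95 (SE 0.16), from 421 to 505 CPM at noon to 228 to 254 CPM at 16:00. OsPRR73 fell by 0.81 (SE 0.15), from 1056 ± 137 to 603 ± 41.8 CPM. The ZTL gene OS02G0150800, coding for an F-box photoreceptor of the clock, fell by 0.51, from 138 ± 9.93 to 96.8 ± 3.70 CPM, a call lost on library totals alone (log2 -0.11). Its groups did not overlap. OsELF3-1, which encodes a scaffold of the evening complex, fell by 0.41 (edgeR adjusted p = 0.0148) although its groups overlapped, 98.4 to 121 CPM at noon and 72.2 to 99.2 CPM at 16:00. That call was lost in 7 of 18 alternatives, among them without noon replicate 3 or without 16:00 replicate 1 or 2 (log2 -0.55 to -0.31 with 1 library left out).

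The other 3 did not pass. OsGI, GIGANTEA, had 1532 ± 237 and 1759 ± 267 CPM with overlapping groups (log2 0.20). The ZTL gene OS06G0694000 was at 174 and 175 CPM (log2 0.00643), and OsELF4a had 2.97 ± 2.86 and 2.61 ± 2.16 CPM, with single libraries from 0.377 to 6.25 CPM. On library totals OsGI (log2 0.60) and the ZTL gene OS06G0694000 (log2 0.42) were called higher.

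The plot of the daily course shows where noon and 16:00 lie for some of these genes. OsLHY was highest at 8:00, OsPRR95 at 16:00 and OsLUX at 16:00 in both genotypes.

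**Figure D2:**
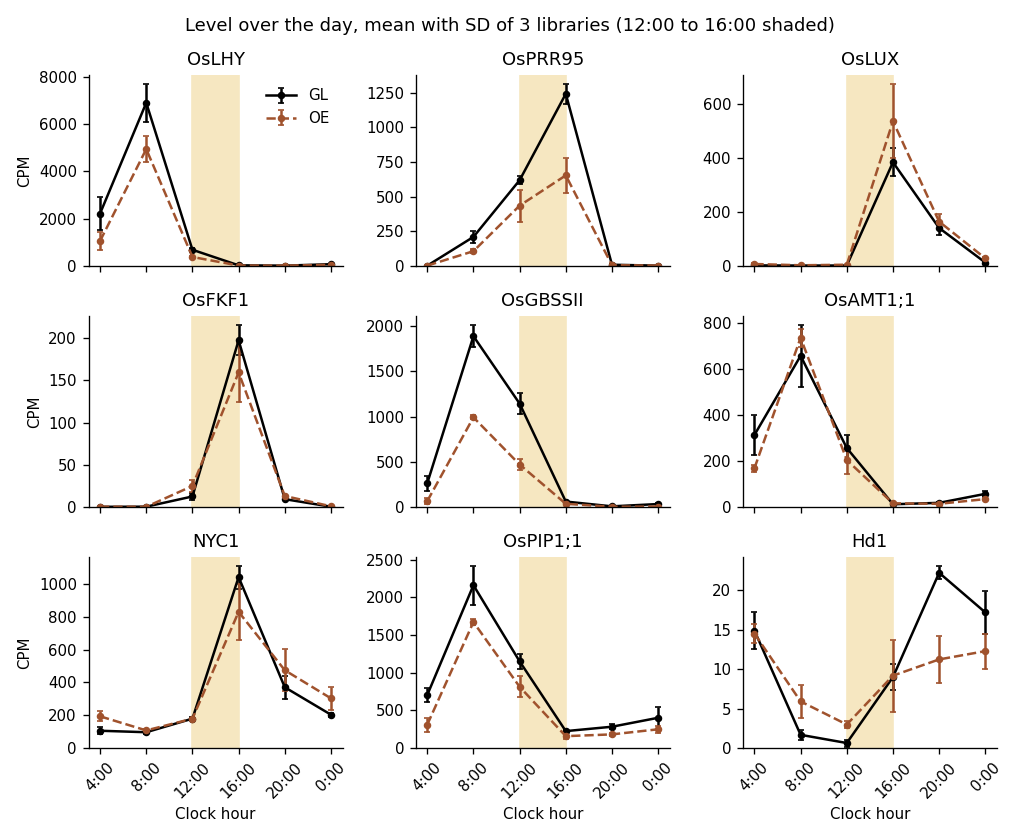
Mean CPM with SD of 3 libraries at the 6 clock hours in GL (solid) and OE (dashed), for 9 genes; the interval from 12:00 to 16:00 is shaded. OsLHY, OsGBSSII, OsAMT1;1 and OsPIP1;1 fall through the shaded interval, while OsPRR95, OsLUX, OsFKF1 and NYC1 climb to their maximum in it.

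Of 9 flowering inducers tested, 1 rose and 2 fell (median log2 0.11), close to the shares of all genes (16.8% and 15.1%), and of 10 repressors 2 rose and 4 fell (median -0.02). On library totals 2 inducers rose and neither fall was called, and of the repressors 6 rose and 3 fell (median 0.39). DTH2 (OS02G0724000), a CONSTANS-like gene that promotes flowering under long days in rice, had 2.64, 3.27 and 2.58 CPM at noon and 27.3, 31.96 and 30.3 CPM at 16:00, a rise of 3.39 (SE 0.22) with no overlap. OsMADS18, a MADS-box gene of floral transition, fell by 0.73 (SE 0.12), a call lost on library totals (log2 -0.33), and OsDof12, a Dof factor, fell by 0.43 (edgeR adjusted p = 0.0316), a call lost in 6 of 18 alternatives, among them without noon replicate 1 or 16:00 replicate 1 or 2 (log2 -0.52 to -0.31 with 1 library left out). OsMADS14, a floral identity gene, had 333 ± 5.81 and 203 ± 62.4 CPM with no overlap and was not called (log2 -0.72, adjusted p = 0.167). With the replicate number as a block it was called (adjusted p = 0.00769). The repressors OsCO3 and OsCOL4, both CONSTANS-like, fell: OsCO3 (OS09G0240200) from 155 to 171 CPM at noon to 7.03 to 12.7 CPM at 16:00 (log2 -3.96, SE 0.24), and OsCOL4 from 118 ± 24.4 to 18.6 ± 1.61 CPM (log2 -2.67, SE 0.25). OsCOL10 fell by 1.33 (SE 0.23) and OsMADS56 by 0.49 (SE 0.13), the latter a call lost on library totals.

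Hd1, the rice CONSTANS, and DTH8, a subunit of a nuclear factor Y complex that represses flowering in long days, were the repressors that rose. Hd1 (OS06G0275000; chromosome 6, 9336535 to 9338535) had 1.08, 0.198 and 0.645 CPM at noon and 10.9, 8.06 and 8.08 CPM at 16:00, a rise of 3.84 (SE 0.40) from few counts per library, and DTH8 rose by 1.303 (SE 0.19), from 13.5 ± 2.90 to 33.2 ± 6.21 CPM. Ehd1 (log2 0.36), OsMADS50 (log2 0.19), OsMADS51 (log2 -0.02), Hd16 (log2 -0.07) and Hd6 (log2 0.03) did not pass.

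In the light input list 3 of 7 rose and 3 fell (median log2 0.26), where 16.8% and 15.1% of all genes did. OsPIL13 (OS03G0782500), a basic helix-loop-helix factor of the phytochrome-interacting family, fell from 271 to 311 CPM at noon to 51.8 to 59.3 CPM at 16:00 (log2 -2.38, SE 0.19). Se5, haem oxygenase for phytochrome chromophore synthesis, fell by 2.65 (SE 0.25) and the phototropin gene OsPHOT2 by 0.95 (SE 0.17). The groups of these 3 did not overlap. The phytochrome gene OsPHYC rose by 0.74 (SE 0.17), OsPHYB by 0.80 (SE 0.28; edgeR adjusted p = 0.0271) and OsPHYA by 0.35 (SE 0.13; edgeR adjusted p = 0.036). The OsPHYB call was lost in 6 of 18 alternatives, namely both fits of FPKM and without any 1 noon library or 16:00 replicate 3 (log2 0.72 to 0.85 with 1 library left out). The OsPHYA call was lost in 10, among them replicates 2 and 3 alone, both fits of FPKM, and without noon replicate 1 or any 1 library of 16:00 (log2 0.22 to 0.40). In replicates 2 and 3 alone 2 of the list rose.

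Of 8 light-harvesting antenna genes tested 5 fell and the other 3 did not pass (median log2 -0.92), where 15.1% of all genes fell. Every noon library lay above every 16:00 library in 7 of the 8, as it did for 21.4% of all genes tested. OsLhcb3 (OS07G0562700), a chlorophyll-binding protein of the photosystem II antenna, was at 8512, 6604 and 6255 CPM at noon and 2088, 1714 and 2218 CPM at 16:00, a fall of 1.83 (SE 0.31; edgeR adjusted p = 3.34e-05). OsLhcb2 fell by 1.55 (SE 0.36), OsLhca3 by 0.89 (SE 0.22), OsLhcb4 by 0.86 (SE 0.31) and OsLhcb1.3 by 0.95 (SE 0.35). The calls of OsLhcb4 and OsLhcb1.3 were both lost in 7 of 18 alternatives, namely library totals, replicates 2 and 3 alone, and each single-library omission but that of noon replicate 3 (log2 -1.04 to -0.67 for OsLhcb4 and -1.08 to -0.90 for OsLhcb1.3). The log2 change of OsLhcb1.2 was -0.94, that of OsLhca4 -0.47 and that of OsLhca1 -0.43, none of them called. Members of this family can share reads, and the kit does not mark strand, so antisense transcripts are counted together. Replicate 1 stood above replicates 2 and 3 by a median of 0.46 (log2) at noon and 0.08 at 16:00 in this list, and its part in the result was not tested. In replicates 2 and 3 alone 3 fell (median -0.82), and on library totals 3 fell (median -0.49).

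Of 5 photosystem II and electron carrier genes tested 3 fell and 1 rose (median log2 -0.67), where 15.1% and 16.8% of all genes did. In replicates 2 and 3 alone 3 fell and 1 rose as well (median -0.56). With the replicate block 4 fell, and on library totals 2. Replicate 1 was above the others by 0.54 at noon and 0.02 at 16:00, and its part in the result was not tested. OsFd1 (OS08G0104600), a ferredoxin that passes electrons on from photosystem I, had 5511, 3948 and 3219 CPM at noon and 615, 583 and 817 CPM at 16:00 (log2 -2.65, SE 0.27). OsPetE, plastocyanin, fell by 1.15 (SE 0.24) and OsPetC, the Rieske subunit, by 0.67 (SE 0.18), the OsPetC call lost on library totals (log2 -0.24). OsLFNR1, a leaf ferredoxin-NADP reductase, rose by 0.70 (SE 0.21), from 898 to 974 CPM at noon to 1505 to 1528 CPM at 16:00. The photosystem I gene OsPsaH fell by 0.66 (SE 0.20), a call lost on library totals (log2 -0.25) and without 16:00 replicate 2 (log2 -0.59).

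In carbon fixation OsRPE, ribulose phosphate epimerase, fell by 0.98 (SE 0.21) and OscpFBPase, chloroplast fructose bisphosphatase, by 0.81 (SE 0.20), the 2 Calvin cycle genes tested. Rubisco activase, OsRCA (OS11G0707000), had 41900, 31610 and 29830 CPM at noon and 2254, 1817 and 2328 CPM at 16:00. The groups did not overlap, yet the gene was not called (log2 -4.01, SE 2.05; edgeR adjusted p = 0.146). When only the 6 libraries of these hours entered the fit it was called (adjusted p = 5.22e-06). The gene is listed at 0 in all 6 libraries of 8:00, GL and OE, and in 3 of 6 at 4:00, while the lowest of the libraries at 0:00, 12:00, 16:00 and 20:00 had 967 CPM. An exact 0 beside such levels can be a failed estimate at the locus, so its noon and 16:00 values carry that doubt. Of 4 photorespiration and catalase genes 2 rose, where 16.8% of all genes did. OsCATA (OS02G0115700) rose by 2.42 (SE 0.31), from 252 to 321 CPM at noon to 1414 to 1571 CPM at 16:00, and OsCATB by 0.90 (SE 0.11). Both encode catalases, which remove hydrogen peroxide. OsGLO1, glycolate oxidase, whose locus in the files may join neighbouring genes, had 3302 ± 427 and 3547 ± 74.2 CPM and did not pass.

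Of 9 chlorophyll synthesis genes 3 rose and 3 fell (median -0.32), where 16.8% and 15.1% of all genes did. On library totals 3 rose and 2 fell (median 0.12). The third rise, OsCHLD, was lost with any 1 library left out, and the third fall, OsPORB, on library totals and without noon replicate 1. OsCHLG, chlorophyll synthase, rose by 1.82 (SE 0.23), from 33.7 ± 5.22 to 119 ± 18.9 CPM. OsGSA, glutamate semialdehyde aminotransferase, rose by 0.96 (SE 0.17), but on deposited FPKM its change was 0.11 and not called. OsCHLH, the large subunit of magnesium chelatase, fell by 1.99 (SE 0.37), and OsHEMA1, glutamyl-tRNA reductase at the start of the pathway, by 1.44 (SE 0.29). In replicates 2 and 3 alone, and with the replicate block, 4 fell and 3 rose. Replicate 1 exceeded the others by 0.51 at noon and 0.28 at 16:00, and its part in the result was not tested.

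Of the 5 genes of chlorophyll breakdown 2 rose and 2 fell, where 16.8% and 15.1% of all genes did. On library totals 2 rose and 1 fell. NYC1 (OS01G0227100), a chlorophyll b reductase, had 180, 169 and 188 CPM at noon and 969, 1044 and 1109 CPM at 16:00, a rise of 2.54 (SE 0.20) with no overlap. NOL, its partner reductase, rose by 0.83 (SE 0.16). OsPAO, pheophorbide a oxygenase, fell by 0.71 (SE 0.13), a call lost on library totals (log2 -0.31), and SGR, the stay-green magnesium dechelatase, by 1.32 (SE 0.25).

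**Figure D3:**
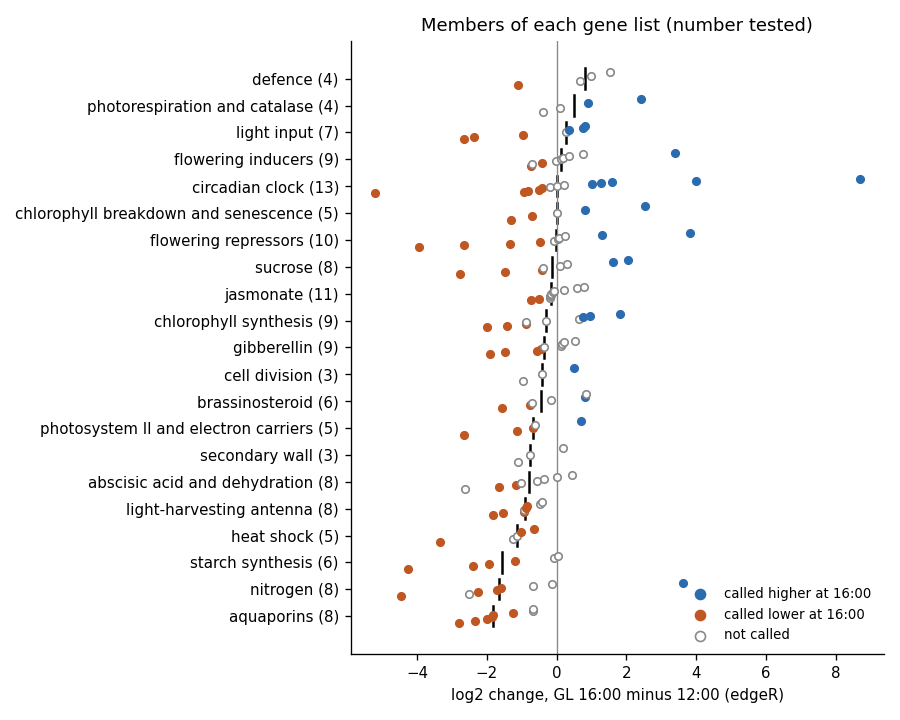
The log2 change from 12:00 to 16:00 in GL of each tested member, by gene list for lists with at least 3 members tested; filled points were called (blue higher, orange lower), open points were not, and the bar is the list's median. The starch synthesis, nitrogen and aquaporin lists lie to the left with medians of -1.56, -1.66 and -1.84, while the clock list is spread from -5.21 to 8.68.

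Of 6 starch synthesis genes 4 fell and the other 2 did not pass (median log2 -1.56), where 15.1% of all genes fell. On library totals 4 fell and 1 rose (median -1.15). In replicates 2 and 3 alone 4 fell as well, and replicate 1 stood above them by 0.26 at noon and 0.30 at 16:00. OsGBSSII (OS07G0412100), granule-bound starch synthase of leaves, had 1258, 1030 and 1143 CPM at noon and 68.6, 55.2 and 54.2 CPM at 16:00, a fall of 4.27 (SE 0.38; edgeR adjusted p = 4.27e-10). OsSSI, a soluble starch synthase, fell by 2.40 (SE 0.29), OsSSIIb by 1.95 (SE 0.25) and OsAGPS2, a small subunit of ADP-glucose pyrophosphorylase, by 1.18 (SE 0.28). The branching enzyme gene OsBEI (log2 -0.07) and the phosphorylase gene OsPHO1 (log2 0.03) did not pass, nor did OsDPE2 of starch breakdown (log2 0.16). Of 8 sucrose genes 2 rose and 3 fell (median -0.15), where 16.8% and 15.1% of all genes did. On library totals 4 rose and 2 fell (median 0.26). The third fall, OsSUT4, was lost in 6 of 18 alternatives. OscFBP1, cytosolic fructose bisphosphatase in sucrose synthesis, fell by 1.48 (SE 0.20) and OsSWEET13, a sucrose exporter, by 2.78 (SE 0.38), from 11.4 ± 2.75 to 1.62 ± 0.97 CPM. OsSUS1, sucrose synthase, rose by 2.05 (SE 0.27), from 3.06 ± 0.51 to 12.7 ± 1.76 CPM, and OsTPP1, a trehalose phosphate phosphatase, by 1.62 (SE 0.41).

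Nitrogen genes fell in 4 of 8 cases and rose in 1, where 15.1% and 16.8% of all genes did. The median log2 was -1.66, or -1.25 on library totals. In replicates 2 and 3 alone 5 fell, and with the replicate block 6. OsAMT1;1 (OS04G0509600), an ammonium transporter, was at 199, 260 and 311 CPM at noon and 8.44, 13.6 and 12.6 CPM at 16:00, a fall of 4.47 (SE 0.29) with no overlap. OsGS1;1, a cytosolic glutamine synthetase, fell by 2.26 (SE 0.18), and OsGS2, the plastid form, by 1.72 (SE 0.37). NADH-GOGAT2 (OS05G0555600), an NADH-dependent glutamate synthase, moved the other way, from 36.9 to 78.0 CPM at noon to 550 to 803 CPM at 16:00 (log2 3.61, SE 0.39).

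Of 8 aquaporin genes, which encode water channels, 6 fell (median log2 -1.84), where 15.1% of all genes did. The replicate block and replicates 2 and 3 alone gave 8 of 8, and library totals 5 of 8, without OsPIP1;3, whose call was also lost without noon replicate 1 or 16:00 replicate 2 or 3. OsPIP1;1, whose locus in the files may join neighbouring genes, fell by 2.35 (SE 0.22), OsPIP2;2 by 2.81 (SE 0.28), OsPIP1;2 by 1.86 (SE 0.23) and the tonoplast gene OsTIP1;2 by 2.00 (SE 0.26), from 1927 ± 135 to 481 ± 104 CPM. Replicate 1 was above the others by 0.33 at noon and 0.61 at 16:00 (log2), and its part in the result was not tested.

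Of 5 heat shock genes 3 fell (median log2 -1.14), where 15.1% of all genes did. In replicates 2 and 3 alone or with the replicate block 4 fell, and on library totals 1. OsHSFA2d (OS03G0161900), a heat shock factor, had 202, 128 and 115 CPM at noon and 20.3, 9.87 and 13.6 CPM at 16:00, a fall of 3.35 (SE 0.42). OsHSFA2c fell by 0.64 (SE 0.16), a call lost on library totals (log2 -0.23), and OsHSP101, a chaperone, by 1.03 (SE 0.37). The OsHSP101 call was lost on library totals and without noon replicate 1 or 16:00 replicate 2 or 3 (log2 -1.22 to -0.79 with 1 library left out). OsHSP24.1 was not called (log2 -1.25, adjusted p = 0.0834) but was with the replicate block (adjusted p = 0.0182). Replicate 1 stood higher by 0.67 at noon and 0.28 at 16:00 in this list, and its part in the result was not tested.

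Of 11 jasmonate genes 2 fell and 9 did not pass (median log2 -0.18, or 0.24 on library totals), a share of falls near the 15.1% of all genes. In replicates 2 and 3 alone 1 rose and 2 fell. The falls were OsJAR1, the jasmonate-isoleucine conjugating enzyme, by 0.75 (SE 0.13) and the receptor gene OsCOI1a by 0.50 (SE 0.10), both calls lost on library totals, where 3 others were called higher. Of 9 gibberellin genes 4 fell (median -0.36), where 15.1% of all genes did. With the replicate block 5 fell, while on library totals 2 fell and 1 rose (median 0.06). The 4 were OsGA3ox2, a synthesis enzyme, by 1.93 (SE 0.36), EUI1, a deactivating enzyme, by 1.48 (SE 0.32), the receptor-linked F-box gene GID2 by 0.45 and SLR1, the DELLA repressor, by 0.56, with the GID2 and SLR1 calls lost on library totals and the SLR1 call also without 16:00 replicate 1 (log2 -0.49). Of 8 abscisic acid genes 2 fell, where 15.1% of all genes did. Replicates 2 and 3 alone (7 tested) and library totals added 1 rise. The 2 falls were OsABA8ox3, which breaks abscisic acid down, by 1.65 (SE 0.24), and OsbZIP23, a response factor, by 1.16 (SE 0.28). Replicate 1 stood higher in this list by 0.57 at noon and 0.26 at 16:00, and its part in the result was not tested. Of 6 brassinosteroid genes 1 rose and 2 fell, where 16.8% and 15.1% of all genes did. Replicates 2 and 3 alone gave 2 and 2, the replicate block 2 and 3, and library totals 2 and 1. BRD1 (log2 -1.57, SE 0.24), of synthesis, and OsBRI1 (log2 -0.75, SE 0.17), the receptor, fell, the latter a call lost on library totals (log2 -0.35), and D11, of synthesis, rose (log2 0.81, SE 0.20), a call lost on FPKM. OsDWARF4 was not called (log2 0.85, adjusted p = 0.0785) but was with the replicate block (adjusted p = 0.0377).

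OsWRKY45, a defence factor and 1 of 4 defence genes tested, fell by 1.096 (SE 0.40). This call was lost in 6 of 18 alternatives, among them each single-library omission but that of 16:00 replicate 1 (log2 -1.43 to -0.88). OsPR1a and OsPR1b were at 0 to 1.06 CPM. OsPCNA, the DNA replication clamp, rose by 0.51 (SE 0.19; edgeR adjusted p = 0.036), a call lost in 7 of 18 alternatives, among them replicates 2 and 3 alone, and without noon replicate 2 or 3 or 16:00 replicate 1 or 3 (log2 0.36 to 0.62). Neither CYCB1;1 (log2 -0.95) nor CDKB2;1 (log2 -0.41) passed. OsCesA4, OsCesA7 and OsCesA9 of the secondary wall did not pass (log2 0.19, -1.095 and -0.77), nor did the cold factors OsDREB1A and OsDREB1G (log2 -0.27 and -0.53). The wall list stood higher in replicate 1 by 1.23 at noon and 1.07 at 16:00. The reference gene OsActin1 fell by 0.60 (SE 0.13), a call lost on library totals (log2 -0.19). Both reference genes were called lower in replicates 2 and 3 alone. OsUBC had a change of -0.43 and was not called (edgeR adjusted p = 0.059), but was called in 9 of 18 alternatives, the replicate block among them (adjusted p = 0.00473). On library totals the OsUBC change was -0.024 and not called.

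Outside the kept list members, only called genes with groups that did not overlap and a log2 mean CPM of at least 1 were ranked. The largest changes by identifier among these genes were at loci with no name in the deposited data. OS03G0184100 (chromosome 3, 4416584 to 4419285, IRGSP-1.0) had 0.12, 0.594 and 0.538 CPM at noon and 357, 313 and 306 CPM at 16:00, a 748-fold rise of its summed counts with an exact binomial interval of 428 to 1450 for counting error only. OS06G0317600 (chromosome 6, 12298046 to 12298770) had 0 counts in the 3 noon libraries and 181, 282 and 414 at 16:00, which is at least 224-fold higher when 3 counts over the noon group are taken as its limit. In replicates 2 and 3 alone the call was lost (adjusted p = 0.0535). In OE this locus was listed at 0 in some libraries and above 10 CPM in others of the same hour, as at 16:00 (41.7, 0 and 18.3 CPM), so its 0 counts at noon may be failed estimates. OS02G0106100 (chromosome 2, 343154 to 346519) had 92, 68 and 80 counts at noon and 0 at 16:00, at least 104-fold lower. It had been listed among the sucrose genes under a name that was dropped as unsupported. OS02G0106201 (343383 to 345939) lies within this locus and had 476 counts at noon in all and 2 at 16:00. Without strand information these overlapping loci cannot be taken as separate falls. OS02G0827400 (chromosome 2, 35559431 to 35561782) had 360 counts at noon in all and 1 at 16:00, a 470-fold fall with an interval of 83.8 to 18600.

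The hour of the daily maximum in the OE libraries is given for the genes called each way; these libraries are not in the GL contrast, though they entered the filter, the scaling and the estimate of spread. Of the 3655 that rose in GL, 47.1% had their highest mean CPM in OE at 16:00, 27.4% at 20:00 and 17.9% at 0:00, against 24%, 13.2% and 14% of all genes tested. Of the 3287 that fell, 73.2% were highest at 8:00 and 18.3% at 12:00, against 25.5% and 11.5% of all genes. OsLHY, OsGBSSII and OsAMT1;1 were among those highest at 8:00. This is a description across genes with no test.

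**Figure D4:**
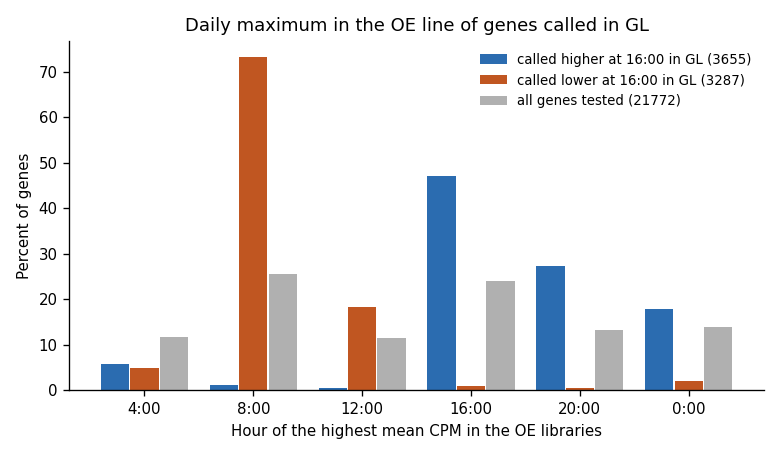
Bars give the percent of genes whose highest mean CPM in the OE libraries fell at each clock hour, for genes called higher or lower at 16:00 in GL and for all genes tested. Genes that fell in GL had their maximum mostly at 8:00 (73.2%), and genes that rose had theirs at 16:00 (47.1%) and 20:00 (27.4%).

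In OE itself 3361 genes rose and 3149 fell between these hours (15.4% and 14.5%). Of the GL calls, 2349 rose in both genotypes, 2329 fell in both and 7 were called in opposite directions, and 96.6% of GL calls had the same sign in OE, against 78.5% of all genes. Across all genes tested the changes of the 2 genotypes had a Pearson correlation of 0.704 and a Spearman correlation of 0.718; genes are not independent replicates, and libraries were scaled and fitted together.

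**Figure D5:**
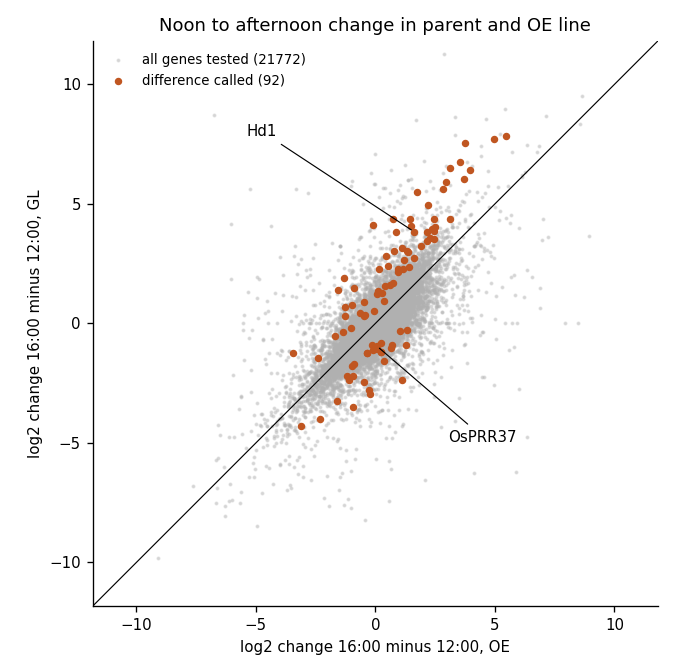
Each point is a gene, with its log2 change from 12:00 to 16:00 in OE on the horizontal and in GL on the vertical axis; the line marks equal change. Orange points are the 92 genes with a called difference between the genotypes, and OsPRR37 and Hd1 are labelled.

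The interaction asked which changes differed between GL and OE. For 63 genes (0.289%) the change was higher in GL and for 29 (0.133%) lower. With the replicate block these counts were 186 and 117, and with replicates 2 and 3 alone 233 and 294. With 1 library left out they ran from 17 to 204 and from 5 to 165. In simulated data with all but the chosen genes held unchanged, the interaction recovered 22.4% of 2-fold changes, so an uncalled gene may still differ. Among list members OsPRR37 and Hd1 passed. OsPRR37 fell by 0.95 in GL and its change in OE was 0.06 (difference -1.01, edgeR adjusted p = 0.0346), where OE counts do not separate the transgene from the resident gene. Hd1 rose by 3.84 in GL and by 1.62 in OE (difference 2.21, edgeR adjusted p = 0.0479). Its 2 genotype means nearly coincided at 16:00 (GL 9.01, OE 9.19 CPM) and lay apart at noon (GL 0.64, OE 2.99 CPM). The GL noon mean rests on 17 counts in all, so the larger rise in GL starts from a level near the floor. The OsPRR37 and Hd1 calls were each lost in 14 of 23 alternatives, 10 of them the omission of 1 library. DTH8 (difference 1.04, adjusted p = 0.0692; 0.0434 with the replicate block) and NADH-GOGAT2 (difference 2.02, adjusted p = 0.0718; 0.0219 with the block) did not pass.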

How the data were processed

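Leaf RNA was extracted with TRIzol and DNase-treated, and cDNA libraries came from a NEBNext Ultra kit, which keeps no strand information, per the labels' protocols. The submitters' processing notes name TopHat2, Cufflinks, Cuffdiff and the build IRGSP-1.0, with no versions. Each deposited file lists 35477 loci. The deposited count column holds whole numbers, treated as estimated counts that the authors rounded up. The normalised column was divided by a library factor, its largest ratio to the count, so no divided value could exceed its count. In 93.48% of nonzero cases the value was no more than 1 under the count, which a count of 1 meets in any case. These counts were tested. FPKM, which the authors deposited beside the counts and which corrects for transcript length and depth, served as an alternative in limma 3.58.1, with 1 or 0.1 added before log2.

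edgeR 4.0.16 in R 4.3.3 was fitted to all 36 libraries in 1 model of 12 groups, with TMM scaling and filterByExpr (minimum count 10, minimum total 15), which left 21772 genes. The quasi-likelihood F test compared GL at 16:00 with GL at 12:00, and the interaction compared that change with the one in OE, adjusted over all genes tested with a threshold of 0.05. DESeq2 1.42.0 was an alternative. The scripts were tested on simulated counts, with 1.5-, 2- and 4-fold changes set in GL at 16:00 in 66 or 67 genes each. The GL comparison recovered 13.4%, 53.7% and 69.7% of these, and the interaction 1.49%, 22.4% and 47%. An uncalled gene may therefore still have changed. Every other simulated gene had the same mean at both hours within its genotype. In the data 31.9% of genes were called in GL, and the adjustment is less strict where more genes change. The simulated shares are therefore not the recovery of the GL comparison itself. The chi-square per gene between replicates (7.83 to 32.6) exceeded counting noise, so no libraries were merged. The same replicate numbers appear in all groups. The deviations of same-numbered noon and 16:00 libraries from their group means correlated with r = 0.401, 0.27 and 0.122. Noon replicate 3 correlated more with 16:00 replicate 2 (r = 0.23), and the other pairs of unlike number ran from -0.391 to -0.00706. Whether the numbers pair the samples one to one is therefore not settled. The main model has no block for them, and the replicate block is given as an alternative. The genotype field of 1 GL library at 0:00 names the OE line; its title places it in GL.

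The members and lists were chosen with earlier results of these data known. Of 261 listed genes, 140 were kept because a reference table of another assembly put the name and the identifier at most 5 Mb apart on 1 chromosome, and 31 because an earlier account of these data used the name; 7 contradicted and 65 unsupported names were dropped, and 18 were not analysed here. The text names every tested clock gene and up to 4 members of each other list by smallest adjusted p. It also names the 2 largest rises and falls outside the kept members, and other members with their values. Those rises and falls were taken from called genes with no overlap and a log2 mean CPM of at least 1. Log2 changes are from edgeR.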

Additional observations from a re-analysis of the deposited data

Results flagged for a closer look

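A difference between the genotypes in the change from 12:00 to 16:00 was called for OsPRR37, with a GL minus OE difference of -1.01 in log2 change, and for Hd1, with a difference of 2.21. The counts of genes with such a difference were 63 with the change higher in GL and 29 with it lower. In OE the OsPRR37 transgene was counted together with the resident gene. For Hd1 the mean levels of the genotypes lay apart at noon, where GL had few counts, and nearly coincided at 16:00. The gap check for single outlying libraries was not applied to groups of 3; values with 1 library left out are given with the processing alternatives.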

How the results depend on the processing

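The GL counts stayed within 1.5 times of 3655 higher and 3287 lower in every alternative except library totals without TMM, which gave 7312 and 1860; with 1 library left out they ran from 2857 to 3345 higher and from 2690 to 3115 lower. The interaction counts of 63 and 29 moved more. They were 177 and 102 with DESeq2, 186 and 117 with the replicate block, 233 and 294 with replicates 2 and 3, 20 and 3 with the 12 libraries of these hours, and 34 with FPKM plus 0.1 for the change higher in GL; library totals gave 17 for the change lower in GL. With 1 library left out they ran from 17 to 204 and from 5 to 165, the highest without OE replicate 1 at 16:00, and were under the main counts by more than 1.5 times in 7 and 9 of 12 fits. Of 104 gene results 63 had the same call and the same sign in every alternative, and 78 when library totals are left out. The replicate block added calls for OsMADS14 (log2 -0.77), OsDWARF4 (log2 0.87), OsHSP24.1 (log2 -1.28), OsUBC (log2 -0.43), and for the differences of DTH8 (1.06) and NADH-GOGAT2 (2.15), and changed no other call of these results. Among these results signs turned only in uncalled genes: the ZTL gene OS06G0694000 had -6.46e-05 with RLE factors, -0.016 with GL libraries alone, -0.0393 with limma on FPKM plus 1, -0.0397 with plus 0.1 and -0.0607 to 0.0303 with 1 library left out; OsELF4a had 0.20 with replicates 2 and 3, 0.27 on library totals and -0.90 to 0.93 with 1 library left out; CDKB2;1 had 0.043 and 0.0139 on the same settings, and -1.02 to 0.021. On library totals OsGDCH had 0.0498, OsCOI1b 0.22 and OsDREB1A 0.14. With 1 library left out OsDREB1A ran from -0.67 to 0.18, OsDREB1G from -2.97 to 0.0755, OsCesA9 from -1.49 to 0.0296, OsCesA4 from -0.0666 to 0.41, and OsGLO1 from -0.0026 to 0.17. The cause was not tested.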
